A study of Homo sapiens with 9 samples.

Results

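Splicing factors and RNA helicases were followed as 151 genes of the 14884 named on the arrays. They were taken by symbol: the SR protein genes (SRSF), the small nuclear ribonucleoprotein genes (SNRP), the hnRNP genes (HNRNP), the pre-mRNA processing factors (PRPF), the numbered RNA-binding motif genes (RBM) and the numbered DEAD-box (DDX) and DEAH-box (DHX) helicases. A gene with several probe set rows was represented by its brightest one. The study measured total RNA from THP-1 cells, an established human monocytic leukaemia line, turned into resting (M0) macrophage-like cells with the phorbol ester PMA. All groups carried that treatment. They then received vehicle, cisplatin at 0.5 µM, which forms platinum crosslinks in DNA, or osimertinib at 100 nM, an inhibitor of the EGF receptor kinase, for 16 h. Each group had 3 independent biological replicates, each on its own Affymetrix Human Gene 2.0 ST array. What the vehicle was is not stated in the labels, and all cells come from 1 line.

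Introns are removed by the spliceosome, a machine of small nuclear RNAs and proteins that is built anew on each intron and driven from step to step by DEAD-box and DEAH-box ATPases. SR proteins mostly help it choose exons, while hnRNP proteins coat the nascent RNA and often counter that choice. Many of these proteins shape their own transcripts by alternative splicing, and macrophages rely on splicing and on helicase sensors of foreign RNA in inflammatory and antiviral responses. The values here are 1 number per gene, so isoforms of a gene are not separated.

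Of the 151 genes, 135 are protein-coding, 10 are pseudogenes and 6 are long non-coding RNAs. In all, 120 reached the level limit for testing, a mean log2 value of 4.28 over the 9 arrays, which is the median of all 14884 genes; 116 of these are protein-coding. The 31 genes under the limit had means between 1.35 and 4.02. DDX51 (3.88), RBM12B-AS1 (3.94) and DDX11L10 (4.02) lay just outside the limit, and PRPF40B (4.28), RBM5-AS1 (4.33) and RBM45 (4.39) just inside it. The protein-coding genes tested were 9 of SRSF, 9 of SNRP, 17 of HNRNP, 10 of PRPF, 30 of RBM, 25 of DDX and 16 of DHX. The SF3A and SF3B genes, SNRNP70, DDX3X, DDX39A, DDX39B, RIGI and RBM3 were not analysed here.

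Deposited log2 values ran from 0.65 to 13.17, with array medians between 3.29 and 3.37. The median over the tested genes was lowest on cisplatin replicate 1 (5.65) and between 5.70 and 5.81 on the other arrays. Of 15 macrophage and monocyte markers 7 were named. Their means ran from 3.25 for LYZ, below the level limit, to 11.1 for CTSD, with CD68 at 9.71, CSF1R at 8.83 and CD14 at 4.30. Among other cell types, CD2 of T cells stood at 3.07, PAX5 of B cells at 4.49 and DCN of fibroblasts at 1.55, while 4 epithelial markers ran from 2.84 to 7.49, the highest being KRT18. Some markers moved with treatment: CD68 stood at 9.44, 9.95 and 9.74 with vehicle, cisplatin and osimertinib, CSF1R at 8.57, 9.07 and 8.86, CTSD at 10.94, 11.21 and 11.19, and KRT18 at 7.71, 7.36 and 7.40. These 4 passed in both comparisons with vehicle (limma, adjusted p between 1.97e-05 and 0.0312), while CD14, SPI1, TYROBP, PAX5 and KRT8 did not. The log2 summed level of the 7 macrophage markers was 11.68 to 11.81 on vehicle, 11.99 to 12.11 on cisplatin and 11.93 to 12.02 on osimertinib arrays. That of the 4 epithelial markers was 7.80 to 8.13, 7.62 to 7.82 and 7.61 to 7.80. Their part in the results below was not tested. In bulk RNA such as this, fewer cells of a type and less RNA per cell cannot be told apart.

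With cisplatin, 52 of the 120 tested genes (43.3%) differed from vehicle at an adjusted p under 0.05 in limma's moderated test, against 31.0% of all 7442 tested genes. More of them fell than rose: 31 (25.8%) were lower, where the share over all genes was 14.5%, and 21 (17.5%) were higher, where it was 16.5%. At least 1.5-fold changes were made by 8 lower and 3 higher genes, against 4.62% and 4.31% of all genes. The median difference of the 120 genes was -0.03 on the log2 scale, beside 0.03 over all tested genes. In 62 of the 120 (51.7%) the 3 cisplatin arrays lay wholly above or wholly below the 3 vehicle arrays, which held for 42.3% of all tested genes. Without vehicle replicate 1, cisplatin replicate 2 or cisplatin replicate 3, the number of higher genes was 12, 11 and 12. Of all tested genes 13%, 11.9% and 11.9% were then higher. The number of lower members stayed between 26 and 31 whichever array was left out, beside 11.4% to 14.3% of all genes. A further quantile normalization gave 29 higher (24.2%) and 28 lower (23.3%) members with a median of 0.03, while over all genes it gave 26.4% higher and 13.1% lower with a median of 0.11.

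With osimertinib, 43 of the 120 genes (35.8%) differed from vehicle, against 30.6% of all genes. Of these 27 (22.5%) were lower, beside 13.7% of all genes, and 16 (13.3%) were higher, beside 16.9%. At least 1.5-fold changes were made by 9 lower and 5 higher genes, against 4.42% and 4.72% of all genes. The median difference was -0.0014 on the log2 scale, beside 0.037 over all tested genes. Non-overlapping arrays were seen in 57 genes (47.5%), against 44.1% of all tested genes. The same further normalization gave 31 higher (25.8%) and 25 lower (20.8%) members with a median of 0.058, and 26.9% higher and 12.5% lower over all genes with a median of 0.11. Both comparisons with vehicle use the same 3 vehicle arrays, so their values are set side by side below and a likeness between them is no independent support for either.

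**Figure D1:**
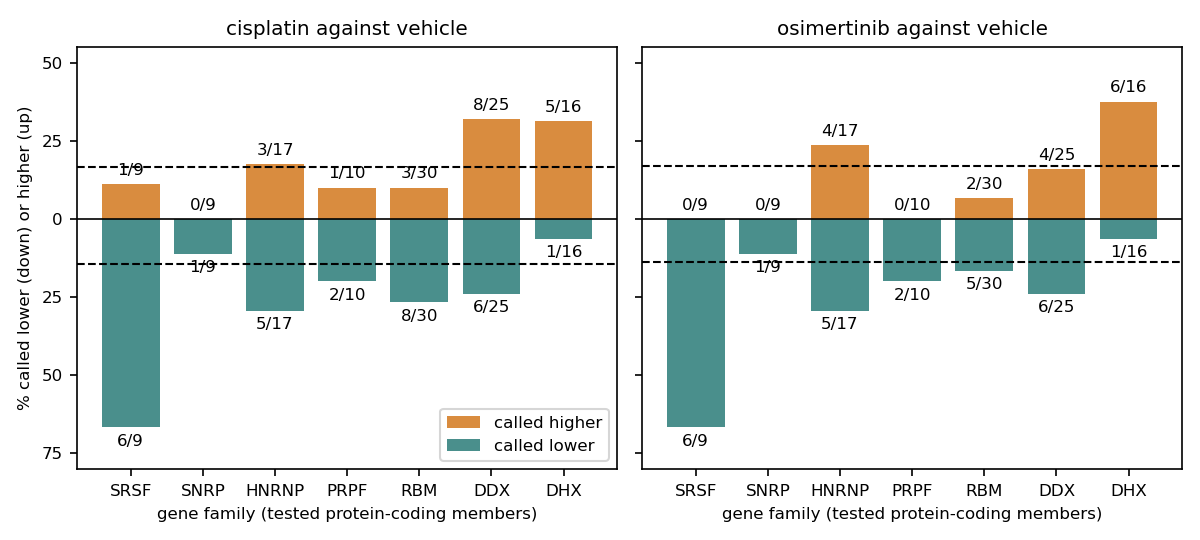
Share of tested protein-coding genes of each family called higher (up) or lower (down) than vehicle, in percent, with cisplatin and with osimertinib; numbers give genes called of genes tested, and dashed lines the share of all 7442 tested genes. In the SRSF family 6 of 9 genes were lower with each drug, while in the DHX family 1 of 16 was lower and 5 (cisplatin) or 6 (osimertinib) were higher.

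The SR proteins bind exonic enhancers and recruit the spliceosome to nearby splice sites. Of 9 tested SRSF genes, 6 fell with cisplatin and 6 fell with osimertinib (66.7%, beside 14.5% and 13.7% of all genes): SRSF1, SRSF2, SRSF3, SRSF5, SRSF7 and SRSF11 in each comparison. The median difference of the 9 genes was -0.27 with cisplatin and -0.34 with osimertinib on the log2 scale, and 6 genes were lower under every one of the 17 alternatives, both scalings included. SRSF3, the smallest of the classical SR proteins and also a factor in mRNA export, is shown with the sequence upstream of its start. All upstream windows below hold the 250 bases before the gene's start in RefSeq on GRCh38.p14, 5′ to 3′ on the gene's strand. Capitals mark matches, on either strand, to 6 motifs: CACGTG, the E-box of MYC and USF factors; CGGAAG, a core of ETS factors; GAANNTTC, the paired unit of heat shock elements; CCAAT, the box of NF-Y; TATAAA, the TATA box; and the core of interferon-stimulated response elements, which is GAAA, any 2 bases and GAAA again.

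SRSF3, chr6:36594112-36594361, plus strand: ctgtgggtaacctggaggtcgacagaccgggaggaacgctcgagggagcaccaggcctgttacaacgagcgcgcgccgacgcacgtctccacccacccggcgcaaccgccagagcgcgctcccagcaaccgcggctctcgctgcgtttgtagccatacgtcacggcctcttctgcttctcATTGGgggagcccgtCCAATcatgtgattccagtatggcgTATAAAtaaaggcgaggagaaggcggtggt

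The SRSF3 window holds CCAAT on each strand and a TATAAA close to the start. SRSF3 read 8.71, 8.68 and 8.72 with vehicle, 8.20, 8.34 and 8.26 with cisplatin and 8.34, 8.20 and 8.19 with osimertinib. All 6 treated arrays lay below all 3 vehicle arrays. The fall by 0.43 with cisplatin (SE 0.061, adjusted p = 1.32e-04) was 1.35-fold, and the fall by 0.46 with osimertinib (SE 0.061, adjusted p = 8.09e-05) was 1.37-fold. SRSF7, a zinc-knuckle SR protein that shares many targets with SRSF3, read 6.50, 6.57 and 6.57 with vehicle, 5.68, 6.16 and 6.16 with cisplatin and 5.93, 5.60 and 5.98 with osimertinib. Every treated array was again below the vehicle arrays, but the treated replicates spread more widely, with cisplatin replicate 1 and osimertinib replicate 2 lowest. The differences were -0.55 (SE 0.13, adjusted p = 0.00713) and -0.71 (adjusted p = 0.00121).

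SRSF1, the founding SR protein, read 9.05, 9.02 and 8.94 with vehicle, 8.64, 8.77 and 8.79 with cisplatin and 8.71, 8.57 and 8.71 with osimertinib, so the treated arrays did not reach the vehicle ones. It fell by 0.27 with cisplatin (adjusted p = 0.00465) and by 0.34 with osimertinib (adjusted p = 8.99e-04). SRSF2 fell by 0.37 and 0.35, SRSF5 by 0.27 and 0.32, and SRSF11 by 0.55 and 0.47, in the same order. SRSF6 and SRSF8 passed in neither comparison: SRSF6 read 7.47, 7.53 and 7.65 with vehicle, 7.30, 7.48 and 7.48 with cisplatin and 7.65, 7.49 and 7.48 with osimertinib, with overlapping groups. SRSF4 was the 1 SR gene called higher, by 0.26 with cisplatin (adjusted p = 0.0492). That call ended when any 1 of 8 arrays was left out (adjusted p between 0.0516 and 0.167), cisplatin replicate 1 being the exception. With osimertinib 0 SRSF genes were called higher, and 0 were at an unadjusted p under 0.05 in limma's test, but with quantile normalization on top 1 was.

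**Figure D2:**
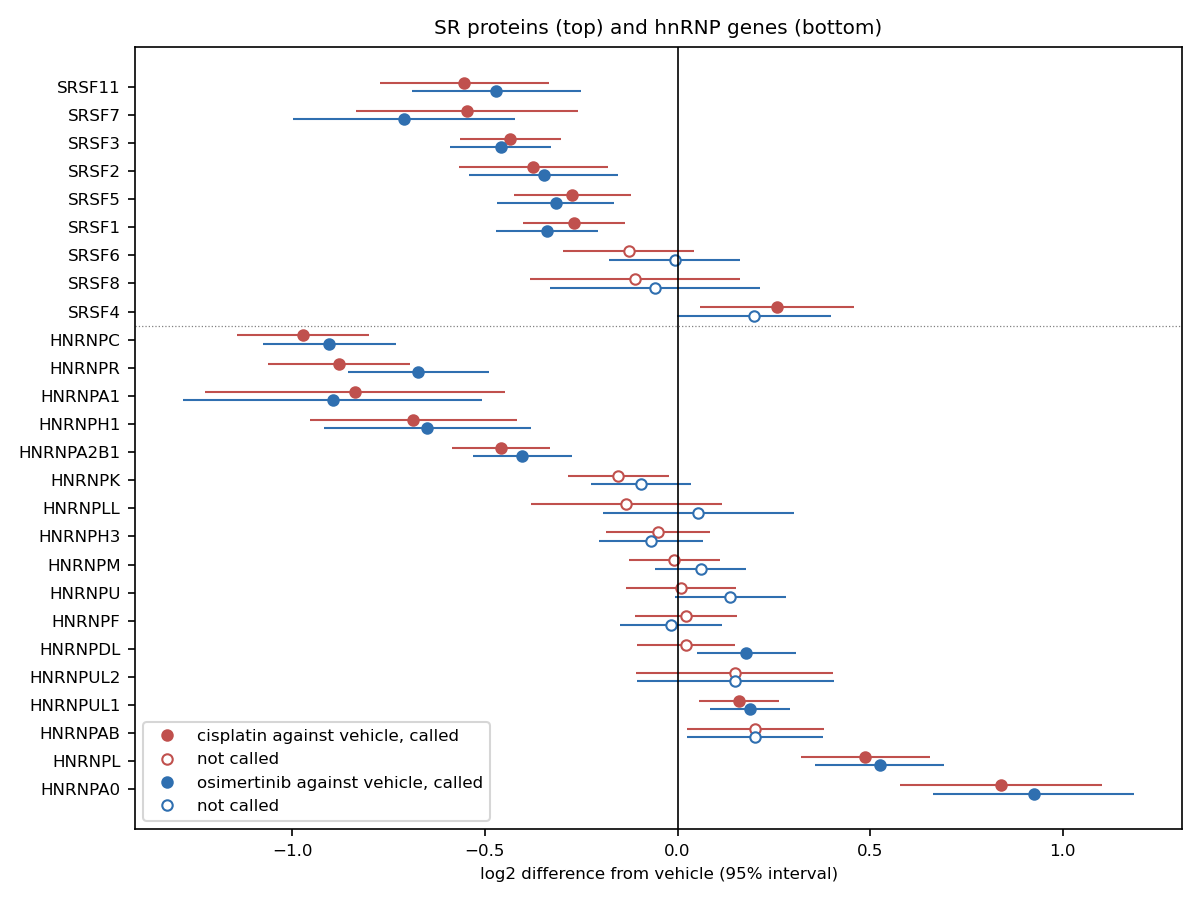
Log2 difference from vehicle for each tested protein-coding SRSF gene (top) and HNRNP gene (bottom), with 95% intervals from limma, for cisplatin and osimertinib; filled points passed the test. SRSF11 and SRSF7 lie lowest of the SRSF genes with cisplatin, HNRNPC and HNRNPR lie at -0.97 and -0.88 with cisplatin, and HNRNPA0 lies at 0.84 and 0.92.

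The SNRP genes encode the Sm core and the specific proteins of the U1 and U2 particles. Of 9 tested, 1 fell with each drug (11.1%, beside 14.5% and 13.7% of all genes) and 0 rose in limma's test; at an unadjusted p under 0.05, 1 was higher with cisplatin and 0 with osimertinib. SNRPA, a U1 protein that binds a stem-loop of the RNA, read 6.60, 6.63 and 6.70 with vehicle, 5.99, 6.38 and 6.34 with cisplatin and 6.14, 6.11 and 5.92 with osimertinib. It was below the vehicle arrays on all 6 treated ones, by 0.41 on average with cisplatin (SE 0.11, adjusted p = 0.0116) and by 0.59 with osimertinib (adjusted p = 0.00101). The Sm proteins SNRPB and SNRPD1 and the U2 protein SNRPA1 differed from vehicle by 0.00 to 0.11 with overlapping arrays. SNRPE, another Sm protein, has 2 rows that differ: the brighter one gave -0.25 with cisplatin and -0.38 with osimertinib (adjusted p = 0.278 and 0.0978), the dimmer one -0.42 and 0.04. SNRPF and SNRPG lay below the level limit.

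Many of the PRPF genes, though not all, build the U4/U6.U5 particle or regulate the U1 particle. Of the 10 tested, 1 rose (10%) and 2 fell (20%) with cisplatin, beside 16.5% and 14.5% of all genes. With osimertinib 0 rose and 2 fell (20%, beside 13.7%), and 1 was higher at an unadjusted p under 0.05 in limma's test. PRPF39, a U1-associated factor of alternative 5′ splice sites, read 5.90, 5.79 and 6.16 with vehicle, 4.97, 5.60 and 5.14 with cisplatin and 5.62, 5.62 and 5.28 with osimertinib. No treated array reached the vehicle range, the cisplatin and osimertinib arrays overlapped each other, and the cisplatin arrays were the most spread. It fell by 0.71 with cisplatin (SE 0.16, adjusted p = 0.00398), a call kept under all 17 alternatives. The difference of -0.45 with osimertinib had an adjusted p of 0.0483, which became 0.0501 to 0.188 when any 1 array other than cisplatin replicates 1 and 2 was left out. PRPF3, of the U4/U6 particle, differed by -0.23 and -0.28 (adjusted p = 0.0359 and 0.0125); the first call ended without any 1 of the 6 vehicle and cisplatin arrays (0.0501 to 0.0919) and the second without osimertinib replicate 2 (0.0562). PRPF31, also of U4/U6, was higher by 0.27 with cisplatin (adjusted p = 0.0368), a call that ended without vehicle replicate 1 or 3 or cisplatin replicate 2 or 3 (0.0523 to 0.15). PRPF8, which forms the catalytic core, differed by -0.17 and -0.07 (adjusted p = 0.0799 and 0.439), and PRPF19 by -0.10 and -0.08 (adjusted p = 0.342 and 0.461).

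Of the 17 hnRNP genes tested, 5 fell with each drug (29.4%, beside 14.5% and 13.7% of all genes), while 3 rose with cisplatin (17.6%, beside 16.5%) and 4 with osimertinib (23.5%, beside 16.9%). Those that fell were HNRNPC, HNRNPR, HNRNPA1, HNRNPH1 and HNRNPA2B1, and each did so under all 17 alternatives. The upstream windows of HNRNPC and HNRNPA0, the 2 hnRNP genes with the largest fall and rise, are given for comparison.

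HNRNPC, chr14:21269443-21269692, minus strand: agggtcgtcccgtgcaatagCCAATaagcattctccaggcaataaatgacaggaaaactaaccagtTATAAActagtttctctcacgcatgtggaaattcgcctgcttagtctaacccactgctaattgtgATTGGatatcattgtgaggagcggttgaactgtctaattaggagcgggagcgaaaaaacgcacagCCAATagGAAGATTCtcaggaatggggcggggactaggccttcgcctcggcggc
HNRNPA0, chr5:137754364-137754613, minus strand: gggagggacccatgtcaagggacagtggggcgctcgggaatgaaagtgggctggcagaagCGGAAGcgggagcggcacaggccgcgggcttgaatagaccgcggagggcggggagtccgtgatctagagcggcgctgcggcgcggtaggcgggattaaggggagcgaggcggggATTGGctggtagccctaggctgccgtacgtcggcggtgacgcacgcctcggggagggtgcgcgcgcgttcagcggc

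The HNRNPC window has 3 CCAAT matches, 1 TATAAA and 1 GAANNTTC and is 48.4% G and C, whereas the HNRNPA0 window has 1 CGGAAG and 1 CCAAT and is 70.4% G and C. HNRNPC binds uridine tracts and keeps cryptic exons, such as those in Alu elements, out of mRNA. HNRNPC read 7.19, 7.30 and 7.17 with vehicle, 6.33, 6.19 and 6.22 with cisplatin and 6.39, 6.24 and 6.31 with osimertinib. The gap between the lowest vehicle array and the highest treated array is wider than the spread within any group. It fell by 0.97, or 1.96-fold, with cisplatin (SE 0.080, adjusted p = 1.71e-06) and by 0.90, or 1.87-fold, with osimertinib (adjusted p = 3.13e-06). HNRNPR, a close relative of the mRNA-binding protein SYNCRIP, read 6.80, 7.04 and 6.96 with vehicle, 6.01, 6.09 and 6.06 with cisplatin and 6.31, 6.27 and 6.20 with osimertinib. All cisplatin arrays lay below all osimertinib arrays and both lay below vehicle, with differences of -0.88 (adjusted p = 7.08e-06) and -0.67 (adjusted p = 6.02e-05). Between the drugs, however, the HNRNPR difference of 0.21 had an adjusted p of 0.351.

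HNRNPA1, which binds silencer elements and antagonises SRSF1, read 7.10, 6.91 and 7.26 with vehicle, 6.02, 6.42 and 6.32 with cisplatin and 6.45, 5.68 and 6.45 with osimertinib. All treated arrays were lower, with osimertinib replicate 2 far below its companions, and the differences were -0.84 (SE 0.18, adjusted p = 0.00318) and -0.90 (adjusted p = 0.00199). HNRNPA1 has many processed pseudogenes that can share probe sequence, so its value may include them. The row of the pseudogene HNRNPA1P10 used here differed by -0.11 and -0.02 (adjusted p = 0.149 and 0.765), and its dimmer row by -0.36 and -0.27. HNRNPH1, a binder of guanine runs, read 7.52, 6.90 and 7.08 with vehicle, 6.46, 6.48 and 6.50 with cisplatin and 6.59, 6.43 and 6.52 with osimertinib. The vehicle arrays spread most, replicate 1 being highest, and all treated arrays were lower, by 0.69 and 0.65 on average (adjusted p = 9.55e-04 and 0.00138). HNRNPA2B1, the partner of HNRNPA1 in core hnRNP particles, fell by 0.46 with cisplatin and by 0.40 with osimertinib (adjusted p = 7.49e-05 and 1.99e-04).

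HNRNPA0, which binds AU-rich elements of cytokine mRNAs and is a substrate of the stress kinase MK2 in macrophages, read 6.29, 6.11 and 6.13 with vehicle, 6.73, 7.15 and 7.17 with cisplatin and 7.23, 7.16 and 6.91 with osimertinib. No treated array came down to the vehicle level, although cisplatin replicate 1 was the lowest of the 6. It rose 1.79-fold with cisplatin (log2 0.84, SE 0.12, adjusted p = 1.69e-04) and 1.90-fold with osimertinib (log2 0.92, adjusted p = 7.9e-05). HNRNPL, a CA-repeat binder, read 7.61, 7.51 and 7.59 with vehicle, 7.89, 8.12 and 8.16 with cisplatin and 8.18, 8.09 and 8.01 with osimertinib. Its groups likewise did not overlap, with differences of 0.49 and 0.52 (adjusted p = 3.67e-04 and 2.04e-04). Its paralogue HNRNPLL differed by -0.13 and 0.05 and passed in neither comparison (adjusted p = 0.412 and 0.766). HNRNPUL1 was higher by 0.16 and 0.19. The call with cisplatin ended without vehicle replicate 1 or 3 or cisplatin replicate 2 or 3 (limma, adjusted p 0.0597 to 0.0778). Both calls ended without the variance trend and robust fit (adjusted p = 0.12 with cisplatin and 0.0713 with osimertinib). HNRNPDL was higher by 0.18 with osimertinib (adjusted p = 0.0343), and that call ended without vehicle replicate 1 or 3 or osimertinib replicate 1 or 2 (0.0893 to 0.122). HNRNPK differed by -0.15 and -0.09 (adjusted p = 0.0711 and 0.265) and HNRNPU by 0.01 and 0.14 (adjusted p = 0.936 and 0.141). The osimertinib split of 4 higher and 5 lower became 6 and 5 with quantile normalization on top, where 26.9% of all genes were higher and 12.5% lower. It became 3 and 6 with arrays centred on their medians, where those shares were 16.9% and 17.9%.

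**Figure D3:**
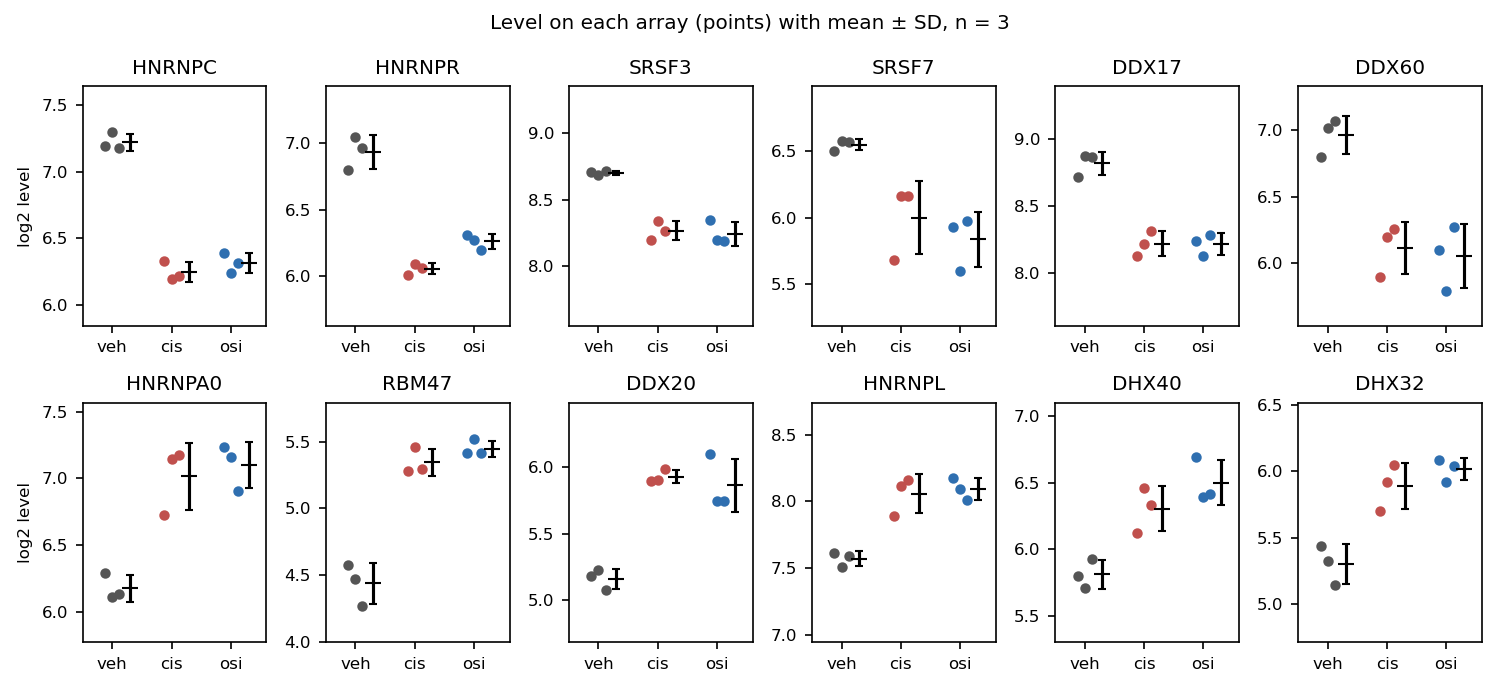
Log2 value on each of the 9 arrays for selected members, by group (vehicle, cisplatin, osimertinib). Points are single arrays and bars are mean ± SD (n = 3). Several members that are not shown, among them RBM5-AS1, HNRNPA1, PRPF39, HNRNPH1, SRSF11 and RBM5, changed more with cisplatin than some of the members drawn. HNRNPC lies between 7.17 and 7.30 on vehicle arrays and between 6.19 and 6.39 on treated ones, and RBM47 between 4.27 and 4.58 and between 5.28 and 5.52.

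The RBM genes share a type of RNA-binding domain and little else. Of 30 protein-coding ones tested, 3 rose (10%) and 8 fell (26.7%) with cisplatin, beside 16.5% and 14.5% of all genes. With osimertinib 2 rose (6.67%) and 5 fell (16.7%), beside 16.9% and 13.7%, so the osimertinib falls are near the share of all genes. RBM47 binds introns and untranslated regions and works with the APOBEC1 cytidine deaminase. RBM47 read 4.58, 4.47 and 4.27 with vehicle, 5.28, 5.46 and 5.30 with cisplatin and 5.42, 5.52 and 5.41 with osimertinib. Vehicle values were near the level limit and all treated values well above them. It rose 1.88-fold with cisplatin (log2 0.91, SE 0.11, adjusted p = 3.77e-05) and 2.01-fold with osimertinib (log2 1.01, adjusted p = 1.66e-05), the largest rise of any tested member in each comparison. RBM15B, an accessory protein of the m6A methyltransferase complex, was higher by 0.44 and 0.49 (adjusted p = 0.0185 and 0.00974), the first of which ended without vehicle replicate 2 (0.0815) or cisplatin replicate 2 (0.0853). RBM42 rose by 0.44 with cisplatin (adjusted p = 0.00646) and differed by 0.27 with osimertinib (adjusted p = 0.0666).

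RBM5, a regulator of the splicing of apoptosis genes such as FAS, read 7.39, 7.51 and 7.50 with vehicle, 6.85, 7.00 and 7.03 with cisplatin and 7.03, 6.80 and 6.91 with osimertinib. It fell by 0.51 and 0.55 (adjusted p = 4.18e-04 and 2.16e-04), and no treated array reached the vehicle range. Its neighbour RBM6 fell by 0.49 with cisplatin (adjusted p = 0.00348) and was lower by 0.38 with osimertinib (adjusted p = 0.0158), the latter lost without vehicle replicate 3 (0.075) or osimertinib replicate 2 (0.0639). The long non-coding RNA RBM5-AS1, which lies within the bounds of RBM5, read 5.04, 5.06 and 5.50 with vehicle, 4.07, 3.67 and 3.73 with cisplatin and 4.13, 3.86 and 3.87 with osimertinib. It fell by 1.37, or 2.59-fold, with cisplatin (SE 0.15, adjusted p = 2.13e-05) and by 1.24 with osimertinib (adjusted p = 4.64e-05). Only through the vehicle arrays did it pass the level limit, with group means of 5.20, 3.82 and 3.95, so some difference was a condition of its being tested. Whether its probes also take up RNA of RBM5 was not tested.

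RBM14, a coactivator and paraspeckle protein, fell by 0.49 and 0.53 (adjusted p = 1.45e-04 and 8.26e-05). RBM25, which joins the U1 particle and regulates 5′ splice sites, fell by 0.40 and 0.33 (adjusted p = 0.00156 and 0.00535). RBM39, an SR-related coactivator close to the U2 factors, read 7.16, 7.07 and 7.02 with vehicle, 6.71, 6.64 and 6.79 with cisplatin and 6.94, 6.76 and 7.09 with osimertinib. Cisplatin arrays were all lower (-0.37, adjusted p = 0.00695), whereas the osimertinib arrays overlapped vehicle (-0.15, adjusted p = 0.241), and the drugs did not differ by their own test (0.22, adjusted p = 0.331). RBM10, a paralogue of RBM5, differed by 0.10 and 0.12 and passed in neither comparison (adjusted p = 0.412 and 0.294). With osimertinib the number of lower RBM genes was 3 without vehicle replicate 3 or osimertinib replicate 2, beside 11.2% and 10.8% of all genes. The number of higher ones was 4 without cisplatin replicate 1, beside 18.3% of all genes. With quantile normalization on top, which raised the higher share over all genes to 26.4% and 26.9%, the RBM split was 5 higher (16.7%) and 6 lower (20%) with cisplatin and 6 (20%) and 5 (16.7%) with osimertinib.

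Among the DDX helicases, 8 of 25 rose (32%) and 6 fell (24%) with cisplatin, beside 16.5% and 14.5% of all genes, and 4 rose (16%) and 6 fell (24%) with osimertinib, beside 16.9% and 13.7%. Among the DHX helicases, 5 of 16 rose (31.2%) and 1 fell (6.25%) with cisplatin, and 6 rose (37.5%) and 1 fell (6.25%) with osimertinib. The count of higher DDX genes with cisplatin was 2 without vehicle replicate 1 or cisplatin replicate 3 and 4 without cisplatin replicate 2. Of all tested genes 13%, 11.9% and 11.9% were then higher, so that share fell too. The count of higher DHX genes was 3 with cisplatin without vehicle replicate 2 or 3 or cisplatin replicate 2, and 3 with osimertinib without osimertinib replicate 3. The higher shares over all genes in these 4 fits were 13.8%, 13%, 11.9% and 16%. With quantile normalization on top, the DDX split with osimertinib was 9 higher (36%) and 5 lower (20%), beside 26.9% and 12.5% of all genes.

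Of the 11 helicases that act on the spliceosome, 4 rose (36.4%) and 2 fell (18.2%) with cisplatin, and 3 rose (27.3%) and 1 fell (9.09%) with osimertinib. Over all genes the shares were 16.5% and 14.5% with cisplatin and 16.9% and 13.7% with osimertinib, so the falls are near them. DDX17, a nuclear helicase that partners DDX5 in alternative splicing, read 8.72, 8.88 and 8.87 with vehicle, 8.12, 8.21 and 8.31 with cisplatin and 8.24, 8.13 and 8.28 with osimertinib. All treated arrays were below vehicle and it fell 1.52-fold with each drug (log2 -0.60, SE 0.068, adjusted p = 2.4e-05 and 2.5e-05). DDX5 itself differed by -0.10 and -0.05 with overlapping arrays (adjusted p = 0.181 and 0.519). DDX42, which joins the U2 particle, was higher by 0.35 and 0.27 (adjusted p = 0.00227 and 0.0118), the second call ending without vehicle replicate 3 (0.0597). DDX46, the Prp5 homologue that helps U2 engage the branch point, read 6.92, 6.82 and 7.00 with vehicle, 6.58, 6.67 and 6.58 with cisplatin and 6.89, 6.82 and 6.79 with osimertinib. It fell by 0.30 with cisplatin (adjusted p = 0.00861), while the osimertinib arrays overlapped vehicle (-0.08, adjusted p = 0.458).

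DHX16 and DHX38, the Prp2 and Prp16 homologues that drive the steps around catalysis, were higher by 0.31 and 0.39 with cisplatin and by 0.27 and 0.45 with osimertinib. Of these, the DHX38 call with osimertinib (adjusted p = 0.00814) was kept under all alternatives. Its call with cisplatin (0.0184) ended without vehicle replicate 2 (0.0865) or cisplatin replicate 2 (0.0743). That of DHX16 with cisplatin (0.0166) ended without vehicle replicate 3 (0.0631) or cisplatin replicate 3 (0.0661), and its call with osimertinib (0.0346) without any 1 array other than cisplatin replicates 1 and 2 (0.0507 to 0.111). All 8 rows of DHX16 were higher with cisplatin, by 0.31 to 0.42. Several of these rows gave the same mean and differences, so they are not independent measurements and add no support to the calls. DHX15, the Prp43 homologue that takes spliceosomes apart, differed by -0.08 and 0.02 (adjusted p = 0.518 and 0.894). The count of higher spliceosomal helicases was 2 with cisplatin without cisplatin replicate 2 or 3, beside 11.9% of all genes in each fit. It was 1 with osimertinib without vehicle replicate 3, beside 14.4%.

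DDX20, or Gemin3, belongs to the SMN complex that loads Sm proteins onto small nuclear RNAs. Its upstream window is shown because it was the helicase with the largest rise with cisplatin.

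DDX20, chr1:111755651-111755900, plus strand: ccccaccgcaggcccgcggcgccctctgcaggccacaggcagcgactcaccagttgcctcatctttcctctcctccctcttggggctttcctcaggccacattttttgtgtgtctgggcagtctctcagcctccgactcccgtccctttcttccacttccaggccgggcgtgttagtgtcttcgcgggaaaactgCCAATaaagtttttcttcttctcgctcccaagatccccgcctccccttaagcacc

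The window holds 1 CCAAT match and none of the other 5 motifs. DDX20 read 5.18, 5.22 and 5.07 with vehicle, 5.90, 5.90 and 5.99 with cisplatin and 6.09, 5.75 and 5.75 with osimertinib. The groups are well apart, and the rise was 1.70-fold with cisplatin (log2 0.77, SE 0.11, adjusted p = 1.45e-04) and 1.63-fold with osimertinib (log2 0.70, adjusted p = 2.86e-04). DHX32 and DHX40, 2 DEAH-box proteins whose roles are less well known, moved by similar amounts. DHX32 read 5.44, 5.32 and 5.15 with vehicle, 5.70, 5.92 and 6.05 with cisplatin and 6.08, 5.92 and 6.04 with osimertinib, a rise of 0.58 and 0.71 (adjusted p = 0.00147 and 3.38e-04). DHX40 read 5.80, 5.71 and 5.93 with vehicle, 6.12, 6.46 and 6.33 with cisplatin and 6.70, 6.39 and 6.42 with osimertinib, a rise of 0.49 and 0.69 (adjusted p = 0.00463 and 4.29e-04). Neither gene's treated arrays overlapped vehicle. DHX9, a helicase of double-stranded RNA and of Alu inverted repeats, was the 1 DHX gene that fell, by 0.38 and 0.33 (adjusted p = 4.75e-04 and 0.00121).

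Of 13 tested helicases of ribosome biogenesis, 5 rose (38.5%) and 2 fell (15.4%) with cisplatin, beside 16.5% and 14.5% of all genes. With osimertinib 2 rose (15.4%) and 3 fell (23.1%), beside 16.9% and 13.7%. DDX49 was higher by 0.46 and 0.55 (adjusted p = 0.0115 and 0.00365), and DDX55 lower by 0.46 and 0.51 (adjusted p = 0.0142 and 0.0078); both calls with osimertinib were kept under all alternatives. With cisplatin the DDX49 call ended without vehicle replicate 1 (0.056) or cisplatin replicate 3 (0.0592), and the DDX55 call without vehicle replicate 2 (0.0656) or cisplatin replicate 1 (0.0519). DDX21, a nucleolar helicase of ribosomal RNA transcription, read 8.54, 8.48 and 8.57 with vehicle, 8.68, 8.80 and 8.78 with cisplatin and 8.70, 8.49 and 8.47 with osimertinib. The cisplatin arrays lay just above vehicle (0.22, adjusted p = 0.0223) and the osimertinib arrays overlapped it (0.03, adjusted p = 0.813); the call ended without vehicle replicate 1 or 2 or cisplatin replicate 2 or 3 (0.0511 to 0.083). The count of higher genes of this role with cisplatin was between 1 and 3 without any 1 of the vehicle arrays or cisplatin replicates 2 and 3. The count of lower ones was 0 without vehicle replicate 2 or cisplatin replicate 1, and 1 without vehicle replicate 1 or 3, cisplatin replicate 2 or 3 or osimertinib replicate 3. With osimertinib the higher count was 4 without cisplatin replicate 1 and 1 without vehicle replicate 2 or 3 or osimertinib replicate 2 or 3, and the lower count was 1 without vehicle replicate 2 or osimertinib replicate 2. All 4 counts of this role therefore changed when 1 array was left out, as did the shares over all genes. Those shares were 11.9% to 18.2% higher and 11.4% to 14.3% lower with cisplatin. With osimertinib they were 12.4% to 18.3% higher and 10.8% to 15.2% lower.

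DDX60 promotes RIG-I-like receptor signalling and is itself an interferon-stimulated gene. Its window is shown because it holds the motif of that class.

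DDX60, chr4:168318753-168319002, minus strand: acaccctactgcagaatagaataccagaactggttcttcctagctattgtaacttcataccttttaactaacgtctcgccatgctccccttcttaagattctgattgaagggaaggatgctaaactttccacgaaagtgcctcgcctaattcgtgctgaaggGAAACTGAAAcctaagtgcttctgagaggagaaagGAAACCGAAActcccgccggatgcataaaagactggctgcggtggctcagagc

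The interferon-stimulated core occurs 2 times in this window and also 2 times in that of its neighbouring paralogue DDX60L. DHX15, HNRNPU, SNRPB2 and SNRPC hold it 1 time each and passed in neither comparison with vehicle. A link between the motif and the changes was not tested. DDX60 read 6.80, 7.02 and 7.07 with vehicle, 5.89, 6.20 and 6.26 with cisplatin and 6.10, 5.79 and 6.27 with osimertinib. It was lower on all 6 treated arrays, 1.80-fold with cisplatin (log2 -0.84, SE 0.13, adjusted p = 2.93e-04) and 1.88-fold with osimertinib (log2 -0.91, adjusted p = 1.61e-04). DDX60L read 8.86, 8.82 and 8.81 with vehicle, 8.40, 8.50 and 8.53 with cisplatin and 8.36, 8.30 and 8.41 with osimertinib, a fall by 0.35 and 0.47 (adjusted p = 3.4e-04 and 3.54e-05). The array may not part these close paralogues. DHX58, or LGP2, another interferon-stimulated sensor, differed by 0.14 and 0.13 with overlapping arrays (adjusted p = 0.379 and 0.422). DHX36, a G-quadruplex helicase that also takes part in sensing, read 6.75, 6.99 and 7.02 with vehicle, 6.74, 7.05 and 7.03 with cisplatin and 7.34, 7.17 and 7.32 with osimertinib. Its osimertinib arrays were above all others (0.36 against vehicle, adjusted p = 0.0157), a call that ended without vehicle replicate 1 (0.0762), osimertinib replicate 1 (0.0588) or osimertinib replicate 3 (0.0517). DDX6, which represses translation and feeds mRNA to decapping, was higher by 0.24 with osimertinib (adjusted p = 0.00434) under all alternatives. Its difference of 0.15 with cisplatin had an adjusted p of 0.04996 and was lost under 11 alternatives, among them leaving out vehicle replicate 1 or 3, any cisplatin replicate or osimertinib replicate 2 (0.0577 to 0.151). The 2 tested mitochondrial helicases, DDX28 and DHX30, passed in neither comparison.

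**Figure D4:**
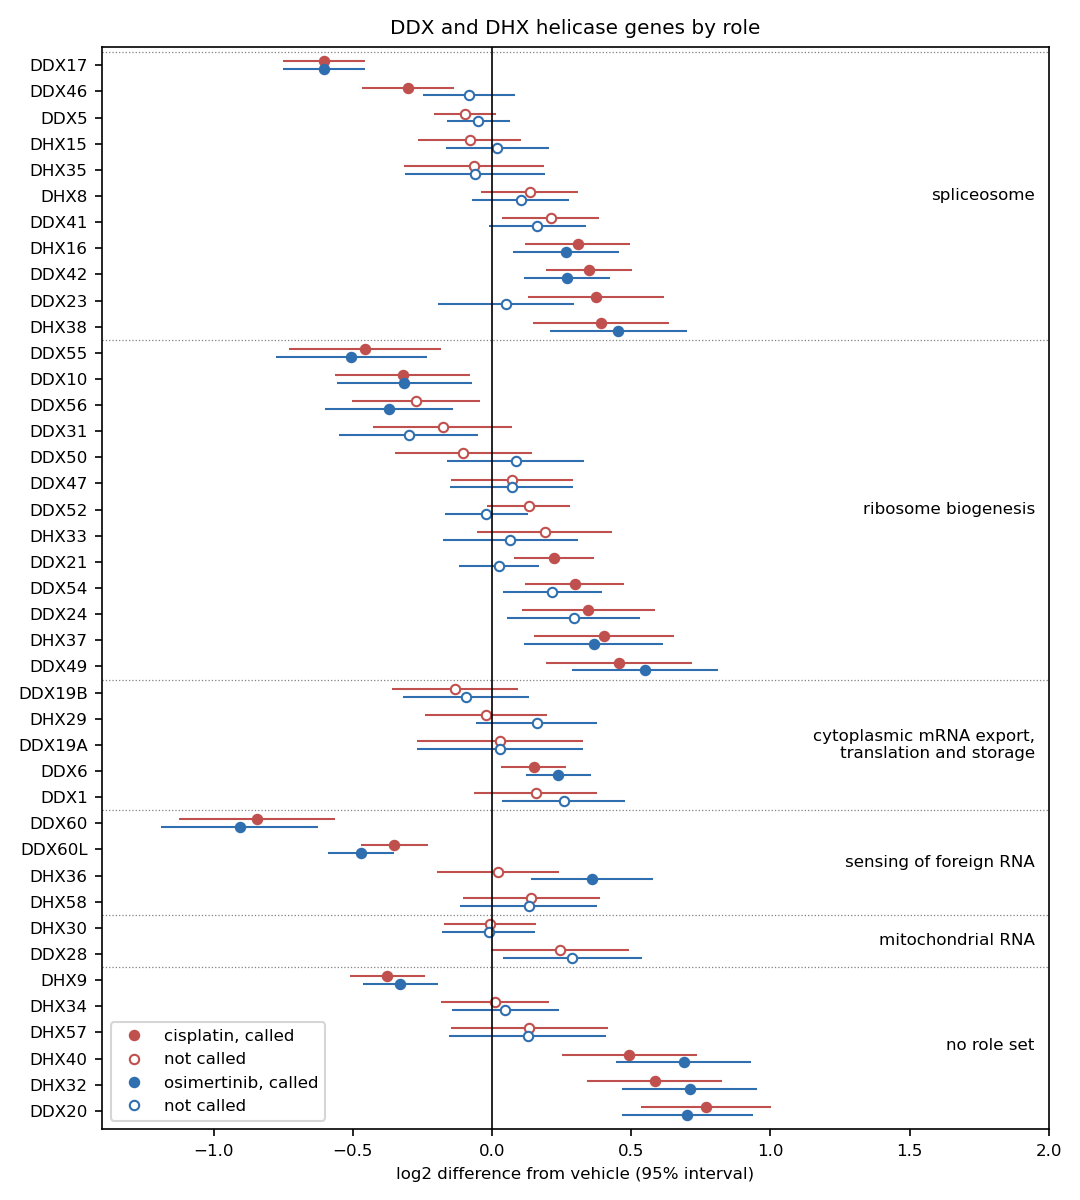
Log2 difference from vehicle with 95% intervals for the tested protein-coding DDX and DHX genes, for cisplatin and osimertinib, grouped by role (filled points passed the test). DDX60 lies at -0.84 and -0.91, DDX17 at -0.60 with each drug and DDX20 at 0.77 and 0.70, while DDX5 and DHX15 lie near 0.

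The 6 motifs were also counted over all members, whatever their change. A window was found for 127 of the 151 members, 103 of them tested and protein-coding. CGGAAG was present in 48 of the 103 (46.6%), beside 16.5% of all 35116 windows, and CCAAT in 53 (51.5%), beside 32% of all. CACGTG was present in 11 (10.7%, beside 6.34%), TATAAA in 7 (6.8%, beside 10.7%), GAANNTTC in 5 (4.85%, beside 5.78%) and the interferon-stimulated core in 6 (5.83%, beside 3.02%). The table of all windows includes non-coding genes, and the counts are letters in a window, not sites of binding.

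Set against each other, the drugs did not part these genes. Osimertinib minus cisplatin gave 0 of 120 genes at an adjusted p under 0.05 in limma, where 130 of the 7442 (1.75%) passed, 0.766% higher and 0.981% lower. At an unadjusted p under 0.05 in limma's test there were 11 of the 120. The share of all tested genes at an unadjusted p under 0.05 is not given, here or for the family counts above. The differences ran from -0.33 to 0.46 on the log2 scale. In 118 of the 120 genes the 95% interval of the difference lay within 1.5-fold in either direction, and 109 intervals included 0; the median interval reached 0.22 to each side. The 3 arrays of one drug lay wholly to one side of the other drug in 8 genes (6.67%), against 14.3% of all tested genes. A miss of the threshold does not show that the drugs act alike on a gene.

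The smallest adjusted p, 0.0886, was that of RBM41, an RNA-binding protein of the minor spliceosome. RBM41 read 5.45, 5.64 and 5.60 with vehicle, 4.94, 5.31 and 5.09 with cisplatin and 5.73, 5.40 and 5.58 with osimertinib. All cisplatin arrays lay below all others, and osimertinib arrays overlapped vehicle. The difference between the drugs was 0.46 (95% interval 0.19 to 0.72), and the fall by 0.45 with cisplatin (adjusted p = 0.0129) was lost without vehicle replicate 2 (0.0501). RBM41 passed between the drugs with arrays centred on their medians (adjusted p = 0.028) and with quantile normalization on top (adjusted p = 0.0468). DHX36 followed at 0.34 (0.12 to 0.56, adjusted p = 0.146), and passed with centred arrays (0.0397). DDX21, 0.20 lower with osimertinib than with cisplatin (log2 -0.20, adjusted p = 0.222), also passed with centred arrays (0.041). At the other end DDX23, the Prp28 homologue that exchanges U1 for U6, was 0.33 lower with osimertinib than with cisplatin (interval -0.57 to -0.08, adjusted p = 0.23). DDX23 read 5.09, 4.97 and 5.23 with vehicle, 5.38, 5.54 and 5.51 with cisplatin and 5.23, 4.96 and 5.25 with osimertinib, so its cisplatin arrays stood above the rest. Its rise with cisplatin (0.37, adjusted p = 0.0227) was lost without vehicle replicate 1 or 2 or cisplatin replicate 2 or 3 (0.0568 to 0.0906).

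**Figure D5:**
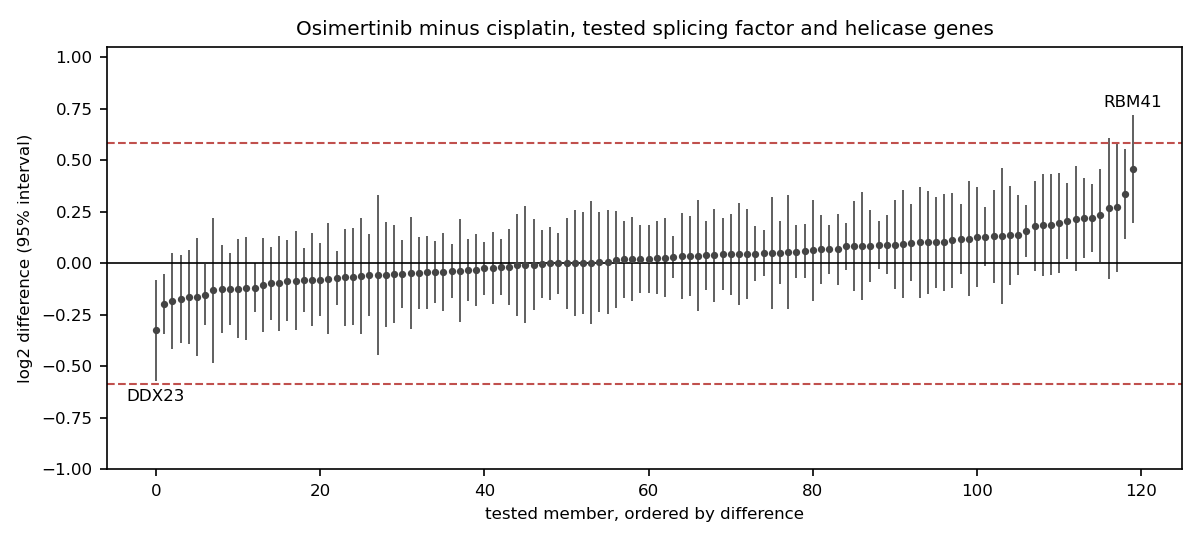
Log2 difference between osimertinib and cisplatin for the 120 tested members in rising order, with 95% intervals; dashed lines mark 1.5-fold. The differences run from -0.33 (DDX23) to 0.46 (RBM41), and 109 of 120 intervals include 0.

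The splicing and RNA-remodelling genes outside these families were read from a list of 137, of which 90 were named and 80 tested. With cisplatin 14 rose (17.5%) and 24 fell (30%), and with osimertinib 11 rose (13.8%) and 20 fell (25%), beside the shares over all genes given above; the medians were 0.02 and 0.02, beside 0.03 and 0.04 over all tested genes. Among the falls were CLK4, a kinase of SR proteins, at -1.12 with cisplatin and -0.75 with osimertinib; PTBP2, the neuronal polypyrimidine tract protein, at -1.12 and -1.06; the U1-associated LUC7L at -1.07 and -0.59 and LUC7L3 at -0.97 and -0.86; and TIA1, a uridine-rich 5′ splice site and stress granule protein, at -1.05 and -0.78. Among the rises were BCAS2 of the Prp19 complex at 0.69 and 0.71, EIF4A3 of the exon junction complex at 0.62 and 0.51, XAB2 at 0.58 and 0.50, SMNDC1 at 0.50 and 0.37, and the second-step factor SLU7 at 0.31 and 0.54. Between the drugs, MBNL1 was 0.26 higher with osimertinib (adjusted p = 0.0114), a count of 1 that became 0 without osimertinib replicate 1. Without vehicle replicate 1 or 3 or cisplatin replicate 2 or 3, the number of rises with cisplatin was 8 or 9. Of all genes 13%, 13%, 11.9% and 11.9% were then higher. Without osimertinib replicate 1 the number with osimertinib was 7, beside 12.4% of all genes.

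Of the 31 members under the level limit, testing every gene without a limit called 2 with cisplatin, RBM4 and the pseudogene SNRPD2P2. With osimertinib it called 1, RBM4, which encodes an alternative splicing factor. Over all 14884 genes, those above the limit included, that fit called 7.41% higher and 7.28% lower with cisplatin. With osimertinib it called 7.77% higher and 6.99% lower. Among tested members, DDX41, DHX30, PRPF40B and RBM45 had tied values on the 3 arrays of at least 1 group, so their measured spread is too small. PRPF40B had a vehicle mean of 4.23, under the limit, and treated means of 4.31 and 4.30, so it too passed only through the treated groups.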

How the data were processed

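The deposited table holds 1 value per probe set row and array. The authors' values were read as log2 from their range; log base, background correction and summarization: not given in the sources used here. Each replicate had its own hybridisation, and the scans were processed by a service provider, per the labels; the submitters' processing notes name Affymetrix Power Tools. Of 53617 rows, 16098 carry 1 gene in the platform annotation, and all their Entrez identifiers matched RefSeq (GRCh38.p14). Values are relative to the bulk of transcripts, so a shift of most transcripts would not show.

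Here 1 linear model with 3 group means (6 residual degrees of freedom) was fitted with limma 3.58.1 in R 4.3.3 over the 7442 genes that reached the median of gene means, with trended, robust empirical Bayes, two-sided tests and Benjamini-Hochberg adjustment over those genes. Folds take the log2 reading. Standard errors of members ran from 0.048 to 0.18 (median 0.10). The fit was tested on simulated data. Genes named were the 8 largest non-overlapping called rises and falls with each drug, 49 fixed genes (35 tested), up to 3 of each family and role by smallest p, the 5 members of highest mean, and up to 4 pathway genes each way; others were named after their values were seen. Members and lists were chosen with earlier results of these data known. Deviations of same-numbered arrays from their group means correlated at -0.23 to 0.13, with 1 of 9 over 0.1. Those of other-numbered arrays correlated at -0.12 to 0.20. With 3 arrays a group, these values cannot decide whether the replicate numbers pair the arrays.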

Additional observations from a re-analysis of the deposited data

How the results depend on the processing

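Each result was recomputed under 17 alternatives, 9 of which left out 1 array. Of the 52 members called with cisplatin 32 were called under all of them, and of the 43 called with osimertinib 31 were. Of these calls 0 reversed. Some calls described above as ending without single arrays also ended under alternatives that kept all 9 arrays. Among these were SRSF4, PRPF3, PRPF31, HNRNPUL1 and DDX21 with cisplatin, and PRPF39, HNRNPDL and DHX16 with osimertinib. Leaving out 1 array gave 11 to 21 higher and 26 to 31 lower members with cisplatin, and 13 to 20 and 21 to 28 with osimertinib. Over all genes it gave 11.9% to 18.2% higher and 11.4% to 14.3% lower with cisplatin. With osimertinib those shares were 12.4% to 18.3% and 10.8% to 15.2%. For the other splicing genes it gave 8 to 16 higher and 16 to 25 lower with cisplatin, 7 to 11 and 14 to 22 with osimertinib, and 0 to 1 higher between the drugs. Quantile normalization on top gave 31 higher members with osimertinib, 26 and 25 higher other splicing genes with cisplatin and osimertinib, and 1 higher member between the drugs. Over all genes it raised the higher share to 26.4% with cisplatin and 26.9% with osimertinib, and gave 1.29% higher between the drugs. Centring arrays on their medians gave 2 higher and 1 lower member between the drugs, beside 1.55% and 1.67% of all genes. Without the level limit 9 other splicing genes were higher with cisplatin, beside 7.41% of all genes. The 1 between the drugs, MBNL1, became 0 with the mean over rows and without the variance trend and robust fit. With the replicate number as a block, 19 members were higher and 29 lower with cisplatin, 14 and 25 with osimertinib, and 0 and 0 between the drugs. Over all genes that fit gave 15.2% and 13.8%, 15.8% and 13%, and 0.605% and 0.847%, in the same order. Array number and signal level, 3 arrays a group, limit the precision. Changes larger than any of the standard errors given can also be missed. DDX31, at -0.30 with osimertinib, had an adjusted p of 0.0665 in limma.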
